A study of Caenorhabditis elegans with 6 samples.

Results

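The genes described here are those named abu, pqn or phat in worms. They were chosen by symbol and by a mean normalized count of at least 10 over the 6 libraries, and 58 of the 72 listed genes of these names met it, out of 16262 listed genes in all. They comprised 10 of 12 abu genes, 42 of 54 pqn genes and all 6 phat genes. The mean level chose the members and is given as a description only. Just above the limit lay abu-13 with a mean of 10.4 and phat-1 with 11.0, and just below it pqn-42 with 8.77 and pqn-37 with 6.95.

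RNA came from whole young adult C. elegans of 2 knock-in strains, 3 libraries each. In LARP-1::GFP (allele yq636) the green fluorescent protein, and in LARP-1::APEX2 (allele yq637) an engineered peroxidase, is fused to LARP-1, which binds messenger RNA. Both groups, the GFP controls included, were grown at 20 °C on Escherichia coli OP50, soaked for 2 h at 25 °C with biotin-aniline (3.3 mM) and then given H2O2 for 2 min. With these substrates the peroxidase attaches biotin to nearby molecules. The sample titles speak of immunoprecipitation, but the protocols describe no pull-down and no unenriched input was analysed here, so recovery near LARP-1 and RNA level in the strain cannot be told apart. Each group is 1 allele, and animals of 150 plates were pooled for a library. Culture, exact age and library preparation cannot be told apart from the strain.

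The pharynx of the worm is a muscular feeding tube lined by its own cuticle, which is shed and rebuilt at each molt, and gland cells embedded in it secrete into its lumen. The abu genes (activated in blocked unfolded protein response) were named for their induction when the unfolded protein response of the endoplasmic reticulum fails, and several of their glutamine- and asparagine-rich, cysteine-rich products, ABU-14 among them, are parts of the pharyngeal cuticle. The pqn genes share only a prion-like glutamine- and asparagine-rich stretch and include pharyngeal proteins as well as proteins of unrelated function. The phat genes (pharyngeal gland toxin-related) encode secreted proteins of the gland cells.

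Between 3824041 and 6414569 reads per library lay on listed genes. The abu genes together held 330 to 477 of these reads in a GFP library and 859 to 1069 in an APEX2 library, the phat genes 226 to 283 and 373 to 501. The families therefore rest on few reads, and several single members rest on fewer than 30 per library. In libraries of whole animals, fewer cells of a type and less RNA per cell cannot be told apart.

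Of the 10 abu genes 6 rose in the LARP-1::APEX2 libraries, 0 fell and 4 did not pass (limma, Benjamini-Hochberg over all 10534 tested genes). Of all tested genes 11.6% were called higher and 10.1% lower. All 10 abu differences were positive, with a median log2 difference of 0.98, against 0.02 over all tested genes. Of these 10, abu-12 and abu-13 had GFP means of only 4.37 and 8.72. They met the mean of 10 through their APEX2 libraries. Under the limit, abu-2 had means of 1.14 with GFP and 0.23 with APEX2, and abu-4 had 3.55 and 4.93. The counts of positive and of called abu genes therefore hold for the chosen members only. All 3 APEX2 libraries lay above all 3 GFP libraries for 7 of the 10, a pattern found in 19.9% of all tested genes.

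The most abundant was abu-8 (chromosome V, 5192995 to 5194608, minus strand), with normalized counts of 150.2, 151 and 102 in GFP replicates 1 to 3 and 351, 319 and 165 in APEX2 replicates 1 to 3. APEX2 replicate 3 lay close to the GFP libraries and the other two stood well apart. The log2 difference was 1.00 ± 0.24 (SE; limma adjusted p = 0.0091). Its neighbour in level, abu-14 (chromosome II, 9225186 to 9227214, minus strand), whose product lines the pharynx, had 109, 109 and 97.1 with GFP and 296, 235.15 and 125 with APEX2. The groups did not overlap, and the same APEX2 library was lowest. The log2 difference of abu-14 was 0.97 ± 0.24 (limma adjusted p = 0.010).

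The genes abu-15, abu-6 and abu-7 lie within 6181 bases of chromosome V (5158602 to 5164782). For abu-15 the counts were 36.3, 48.17 and 42.3 with GFP and 158, 78.4 and 64.3 with APEX2, without overlap, a rise of 1.13 ± 0.28 (limma adjusted p = 0.011). The gene abu-7 had 40.3, 38.1 and 27.4 with GFP and 124, 55.1 and 42.9 with APEX2, again without overlap. Its difference of 0.91 ± 0.32 did not pass (limma adjusted p = 0.057). Counts of abu-6 were 29.5, 34.7 and 22.8 with GFP and 96.6, 58.8 and 29.1 with APEX2, where replicate 3 fell inside the GFP range. The difference of 0.92 ± 0.35 did not pass either (limma adjusted p = 0.074). In all 3 neighbours APEX2 replicate 1 was highest and replicate 3 lowest. Counting could divide reads between alike copies of this family, which makes a single gene less certain than the family sum.

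The first-named gene of the family, abu-1 (chromosome V, 10380340 to 10381826, minus strand), had even counts of 30.4, 32.5 and 29.7 with GFP and 89.6, 54.1 and 72.0 with APEX2. It rose by 1.16 ± 0.23 (limma adjusted p = 0.0028), the most significant abu call, and here APEX2 replicate 2 was the lowest. For abu-11 (chromosome II, 192509 to 194558) the counts were 37.3, 35.8 and 30.8 with GFP and 60.1, 112 and 51.2 with APEX2, so that replicate 2 stood apart. The rise was 1.00 ± 0.27 (limma adjusted p = 0.017). The scarce abu-12 (chromosome X, 450446 to 457610) had 2.95, 5.60 and 4.57 with GFP, which is 3 to 5 reads, and 31.8, 14.0 and 11.1 with APEX2, which is 15 to 27 reads. Its log2 difference of 1.79 ± 0.46 (limma adjusted p = 0.013) was the highest of the family and rests on those few reads. The last 2 genes overlapped between groups. They were abu-10, at 14.7, 23.5 and 12.6 against 34.2, 33.6 and 15.9 (0.66 ± 0.35; limma adjusted p = 0.21), and abu-13, at 13.7, 7.84 and 4.57 against 7.07, 14.9 and 14.5 (0.49 ± 0.46; limma adjusted p = 0.50).

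Per kilobase of exon, abu-8 (88.2 with GFP and 183 with APEX2) and abu-14 (74.7 and 156) were the most abundant members of the family, followed by abu-15 (33.6 and 79.6). The lowest were abu-13 (4.73 and 6.61) and abu-12 (1.52 and 6.60). Division of reads among the abu genes would leave their sum as it is. Reads dropped in counting, or divided with genes outside the family, could change it, and how such reads were counted is not known. Over all 12 listed abu genes the family took 0.0101% ± 0.00127 of reads with GFP and 0.0204% ± 0.00652 with APEX2 (SD, n = 3), a ratio of 2.02. Against the GFP mean this share was 2.60, 2.13 and 1.33 times as large in APEX2 replicates 1, 2 and 3.

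**Figure D1:**
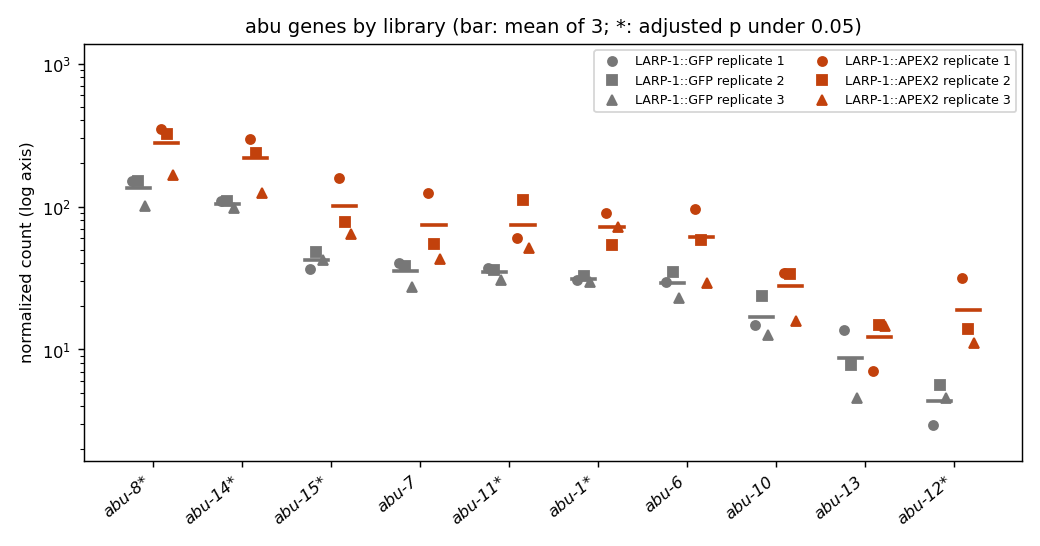
Normalized counts (log axis) of the 10 abu genes in the 3 LARP-1::GFP libraries (grey) and the 3 LARP-1::APEX2 libraries (orange), with a bar at each group mean and symbols for replicates. Group means are higher with APEX2 for all 10 genes, and APEX2 replicate 3 (triangle) is the lowest APEX2 library in 8 of them.

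Single libraries decided several of these calls. Each adjusted p below comes from limma on the other 5 libraries. The calls of abu-8 and abu-14 ended without GFP replicate 3 (adjusted p = 0.070 and 0.060) or APEX2 replicate 2 (0.054 for each). That of abu-11 was lost when GFP replicates 2 (0.051) and 3 (0.082) and APEX2 replicate 2 (0.080) were each left out, the last of which took its difference to 0.67. The call of abu-12 ended without GFP replicate 1 (0.056) or APEX2 replicate 1 (0.063), and that of abu-15 without GFP replicate 1 (0.054). Without APEX2 replicate 1 the difference of abu-15 was 0.74. In the other direction, 9 of the 10 genes were called higher without APEX2 replicate 3, and 3 without APEX2 replicate 2 or without GFP replicate 3. Only abu-1 was called in every setting run.

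Many members of the 3 families, though not all, shared an order of the APEX2 libraries. Of the 16 members called higher, 11 were highest in APEX2 replicate 1, 4 in replicate 2 and 1, pqn-52, in replicate 3. Replicate 3 was the lowest for 13 of them, and 9 followed the full order of replicates 1, 2 and 3. The order was weaker in the 31 pqn genes that did not pass, where replicate 1 was highest for 15 and replicate 3 lowest for 15. Among all 58 members replicate 1 was the highest for 60.3% and replicate 3 the lowest for 62.1%, where the shares over all tested genes were 38.5% and 34.4%. Median log2 deviations from the GFP mean in replicates 1, 2 and 3 were 1.50, 1.00 and 0.44 for abu genes, 0.73, 0.30 and -0.05 for phat genes and 0.22, 0.16 and -0.01 for pqn genes. Over all tested genes the median was 0.03 in each library. The highest APEX2 library exceeded the lowest by a median factor of 2.27 for abu genes, against 1.36 over all tested genes, and among the GFP libraries these factors were 1.48 and 1.23.

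**Figure D2:**
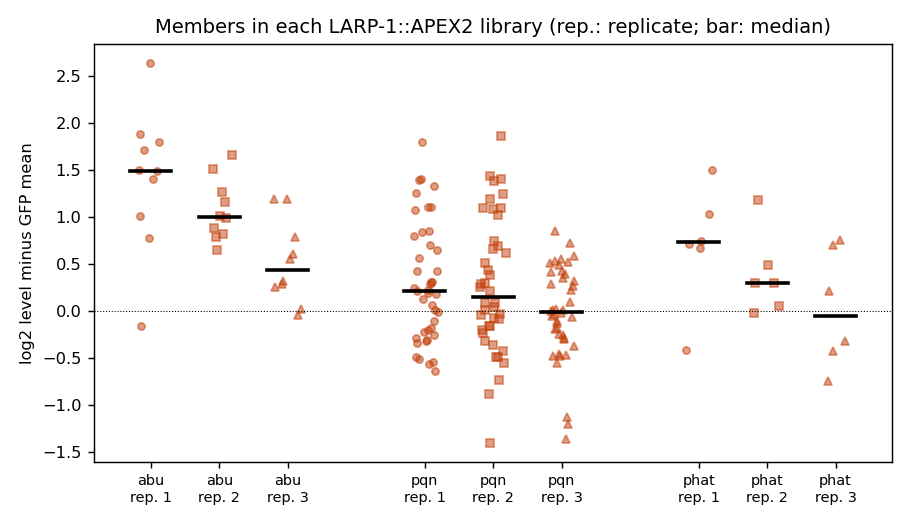
Log2 level of each member in each LARP-1::APEX2 library minus its mean over the GFP libraries, by family, with a bar at the median. The abu medians are 1.50 in replicate 1, 1.00 in replicate 2 and 0.44 in replicate 3, and the phat median in replicate 3 is -0.05.

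Among the 42 pqn genes 8 rose and 3 fell, and the other 31 did not pass, where 11.6% and 10.1% of all tested genes rose and fell. Their median log2 difference was 0.08. Of these genes 24 had a positive and 18 a negative difference, so the family did not move as a whole. Groups did not overlap in 13 genes higher with APEX2 and 4 lower, beside 19.9% and 17.5% of all tested genes.

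Of the 8 that rose, 7 had log2 differences between 0.89 and 1.10, close to those of the abu genes. The gene pqn-74 (chromosome IV, 13329507 to 13331406) had 113, 102 and 82.2 normalized counts with GFP and 237, 262 and 148 with APEX2, all of them higher. It rose by 1.09 ± 0.20 (limma adjusted p = 0.0020). For pqn-54 (chromosome V, 1464990 to 1466360) the counts were 118.8, 134 and 87.9 with GFP and 394, 258 and 137 with APEX2, a rise of 1.10 ± 0.28 (limma adjusted p = 0.013). Here APEX2 replicate 3 lay just above the highest GFP library. The gene pqn-75 (chromosome IV, 4072327 to 4077645), whose product is known from the pharyngeal gland cells, had 84.4, 87.4 and 63.96 with GFP and 169.7, 214 and 113 with APEX2. It rose by 1.03 ± 0.22 (limma adjusted p = 0.0041), and it shares exonic bases with W03D2.9 on the opposite strand, whose reads cannot be told apart here.

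The other 4 of these 7 had lower levels. Counts of pqn-31 (chromosome V, 9109581 to 9111013) were 35.3, 26.9 and 26.3 with GFP and 75.4, 63.5 and 49.1 with APEX2 (1.05 ± 0.24; limma adjusted p = 0.0064). The gene pqn-63 (chromosome V, 9616031 to 9617651) had nearly equal GFP counts of 66.8, 62.7 and 63.96 and APEX2 counts of 171, 109 and 92.7 (0.89 ± 0.21; limma adjusted p = 0.0089). In both, APEX2 replicate 1 was highest and replicate 3 lowest. Counts of pqn-32 (chromosome II, 13108019 to 13110169) were 32.4, 22.4 and 37.7 with GFP and 55.4, 72.8 and 55.3 with APEX2 (0.98 ± 0.25; limma adjusted p = 0.011). The gene pqn-2 (chromosome V, 10382442 to 10384063, plus strand) had 14.7, 29.1 and 19.4 with GFP and 55.4, 44.8 and 30.4 with APEX2 (1.02 ± 0.31; limma adjusted p = 0.028). It lies beside abu-1, and both fit in 3724 bases. The eighth, pqn-52 (chromosome I, 5566343 to 5570085), is of another kind. It is abundant, at 1226, 1374 and 1350 with GFP and 1560, 1614 and 1732 with APEX2, and its rise of 0.31 ± 0.10 (limma adjusted p = 0.033) was small and highest in APEX2 replicate 3.

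Of the 3 pqn genes that fell, pqn-41 (chromosome III, 1905958 to 1939570) encodes a polyglutamine-rich protein known from the death of the linker cell in males. It had 399, 449 and 437 normalized counts with GFP and 293, 257 and 292 with APEX2, without overlap, and differed by -0.61 ± 0.12 (log2; limma adjusted p = 0.0022). The gene pqn-59 (chromosome I, 379071 to 381902), the worm counterpart of the vertebrate stress granule protein UBAP2L, was the most abundant member by far. Its counts of 8231, 9829 and 8811 with GFP and 7656, 6372 and 6416 with APEX2 did not overlap, and the difference was -0.40 ± 0.10 (limma adjusted p = 0.015). The short pqn-94 (chromosome V, 20278654 to 20279861), with 382 exonic nucleotides, had 83.5, 88.5 and 68.5 with GFP and 69.5, 42.9 and 30.4 with APEX2 (-0.81 ± 0.26; limma adjusted p = 0.040). APEX2 replicate 1 fell inside the GFP range, and the call ended when differences were corrected for exonic length (limma adjusted p = 0.17).

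Leaving out a library ended the calls of 6 of these 11 pqn genes, with the adjusted p again from limma on 5 libraries. For pqn-54 it was GFP replicate 3 or APEX2 replicate 2 (adjusted p = 0.088 and 0.056; 0.050 with DESeq2 on all 6), for pqn-32 GFP replicate 2 or APEX2 replicate 2 (0.063 and 0.054), and for pqn-59 APEX2 replicate 2, GFP replicate 2 or GFP replicate 3 (0.082, 0.089 and 0.062). The gene pqn-2 lost its call without GFP replicates 1 and 3 and APEX2 replicates 1 and 2, each left out alone (0.129, 0.099, 0.071 and 0.082). That of pqn-52 ended without GFP replicate 1, 2 or 3 (0.148, 0.070 and 0.095) or APEX2 replicate 2 or 3 (0.082 and 0.078). With all 6 libraries it ended under the same total per library, quantile normalization, length correction or the replicate block (limma adjusted p = 0.081, 0.249, 0.079 and 0.073). The call of pqn-94 also ended without GFP replicate 1, 2 or 3 (0.128, 0.147 and 0.079) or APEX2 replicate 2 or 3 (0.103 and 0.118). Without APEX2 replicate 2 or GFP replicate 3, 4 and 5 genes were called higher, and without either of them or GFP replicate 2 only pqn-41 was called lower. The calls of pqn-31, pqn-41, pqn-63, pqn-74 and pqn-75 held in every setting that gave them a value.

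The 31 pqn genes that did not pass had differences from -0.55 to 0.89 with a median of 0.02, and means from 13.6 to 1223. The abundant pqn-20 (chromosome I, 6790978 to 6798161) had 1243, 1303 and 1202 normalized counts with GFP and 1447, 1089.9 and 1051 with APEX2, so that APEX2 libraries lay on both sides of the GFP range (-0.08 ± 0.12; limma adjusted p = 0.70). All APEX2 libraries lay above all GFP libraries for pqn-18 (0.36), pqn-21 (0.42), pqn-22 (0.33), pqn-27 (0.32) and pqn-60 (0.86), and below them for pqn-53 (-0.34) and pqn-70 (-0.31). None of these 7 log2 differences passed, with limma adjusted p from 0.061 for pqn-27 to 0.129 for pqn-22.

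The APEX2 libraries differed most from each other in pqn-73, pqn-62 and pqn-13, and the widest 8 of all members also held abu-6 and abu-7. Counts of pqn-73 (chromosome II, 8540712 to 8545393) were 8.25, 32.7 and 8.30 with APEX2 and 20.6, 7.84 and 10.3 with GFP, so that replicate 2 alone was high. Counts of pqn-13 (chromosome V, 5669604 to 5676111) were 20.0, 42.9 and 11.1 with APEX2 and 18.7, 5.60 and 12.6 with GFP, with the same library on top. For pqn-62 (chromosome X, 5196110 to 5204274) replicate 3 alone was low, at 27.1, 27.1 and 6.92 with APEX2 and 18.7, 11.2 and 20.6 with GFP. Their log2 differences of 0.14, 0.89 and 0.09 did not pass (limma adjusted p = 0.88, 0.22 and 0.91).

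Summed over all 54 listed genes, pqn genes took 0.429% ± 0.0151 of reads with GFP and 0.381% ± 0.0127 with APEX2 (SD, n = 3), given without a test. The 41 members other than pqn-59 took 0.226% ± 0.00188 with GFP and 0.232% ± 0.0062 with APEX2 (SD, n = 3). Per kilobase of exon, pqn-59 had 3872 with GFP and 2946 with APEX2, and the next, pqn-52, had 611 and 759. The 8 genes that rose had exonic lengths of 1260 to 2155 nucleotides, within the range of 382 to 6786 for the 39 pqn genes with an annotation. Of the 14 abu and pqn genes that rose, 7 lie on chromosome V, as do 9 of the 35 placed abu and pqn genes that did not, where 17.5% of all tested genes with a position lie.

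**Figure D3:**
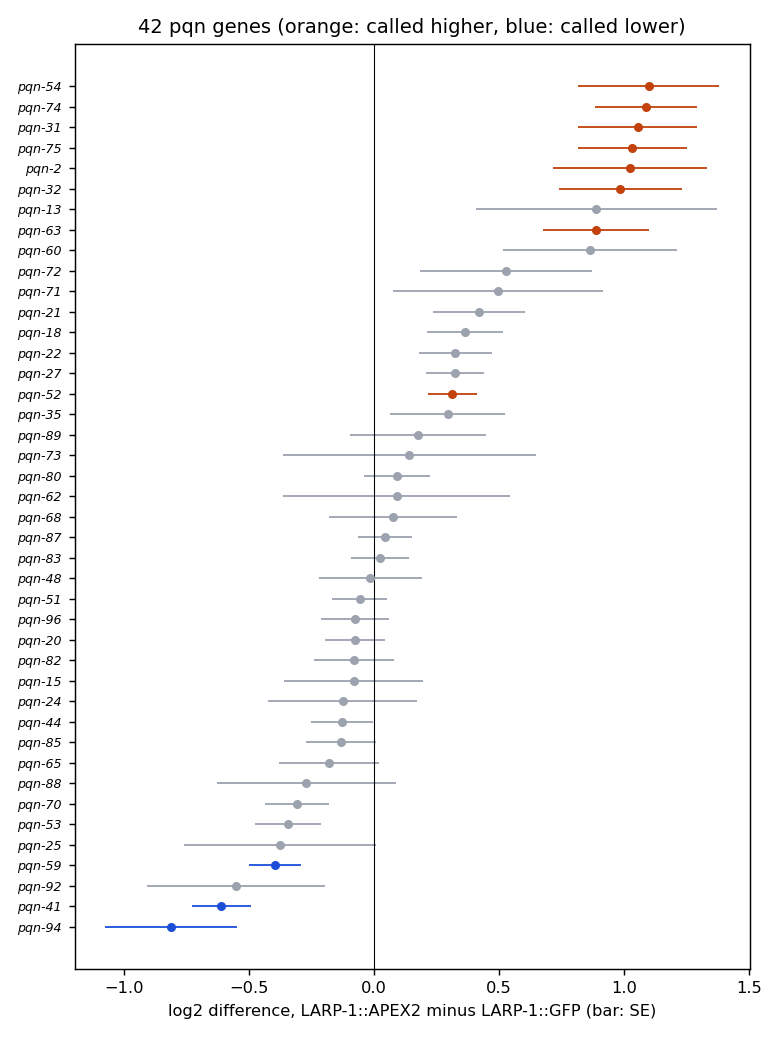
Log2 difference (LARP-1::APEX2 minus LARP-1::GFP) of the 42 pqn genes with its SE, in rank order, with genes called higher in orange and lower in blue. Of the 8 called higher, 7 lie between 0.89 and 1.10 and pqn-52 at 0.31, while 31 genes in grey did not pass.

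Of the 6 phat genes 2 rose, 0 fell and 4 did not pass, around a median log2 difference of 0.33, where 11.6% of all tested genes rose. Of these 2, phat-1 had a mean of only 6.43 with GFP and 15.7 with APEX2. It met the limit on the mean through its APEX2 libraries. Without that limit phat-4 alone was called, so the count of 2 rests in part on how members were chosen. The 6 genes sit at 4 places. The most abundant, phat-4 (chromosome V, 4129904 to 4130909, plus strand), had 155, 147 and 143 normalized counts with GFP and 304, 208 and 252 with APEX2. The groups stood well apart, with a rise of 0.76 ± 0.15 (limma adjusted p = 0.0030), and the call held in every setting. Its neighbour phat-5 (chromosome V, 4121489 to 4122515, minus strand) did not share this, at 30.4, 13.4 and 21.7 with GFP and 15.3, 20.5 and 15.2 with APEX2 (-0.28 ± 0.34; limma adjusted p = 0.60). The APEX2 values of phat-5 all lay inside its GFP range.

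The gene phat-1 (chromosome I, 5044198 to 5045720, minus strand) had 6.87, 6.72 and 5.71 with GFP, which is 5 to 7 reads, and 20.0, 15.9 and 11.1 with APEX2, which is 16 or 17 reads. It rose by 1.13 ± 0.39 (limma adjusted p = 0.049). This call did not last without GFP replicate 1, 2 or 3 (limma adjusted p = 0.102, 0.108 and 0.144), without APEX2 replicate 1 or 2 (0.145 and 0.107), when corrected for exonic length (0.057) or under TMM scaling or an equal total per library (0.052 and 0.060). Beside it, phat-2 (chromosome I, 5046394 to 5048003) had 20.6, 25.8 and 19.4 with GFP and 36.5, 27.1 and 17.3 with APEX2. These values ran on both sides of the GFP range (0.24 ± 0.31; limma adjusted p = 0.64).

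For phat-3 (chromosome V, 4043932 to 4044951) the counts were 47.1, 44.8 and 69.7 with GFP and 84.8, 55.1 and 31.1 with APEX2. Its APEX2 replicate 1 was the highest and replicate 3 the lowest of all 6 libraries, and the difference was -0.00 ± 0.31 (limma adjusted p = 0.99). Counts of phat-6 (chromosome X, 15193086 to 15194383) were 17.7, 15.7 and 18.3 with GFP and 29.5, 21.5 and 20.1 with APEX2, without overlap (0.42 ± 0.29; limma adjusted p = 0.34). Over the 6 genes the share of reads was 0.00611% ± 0.000458 with GFP and 0.00857% ± 0.00144 with APEX2 (SD, n = 3), a ratio of 1.40. The family median was 0.13 without APEX2 replicate 1.

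**Figure D4:**
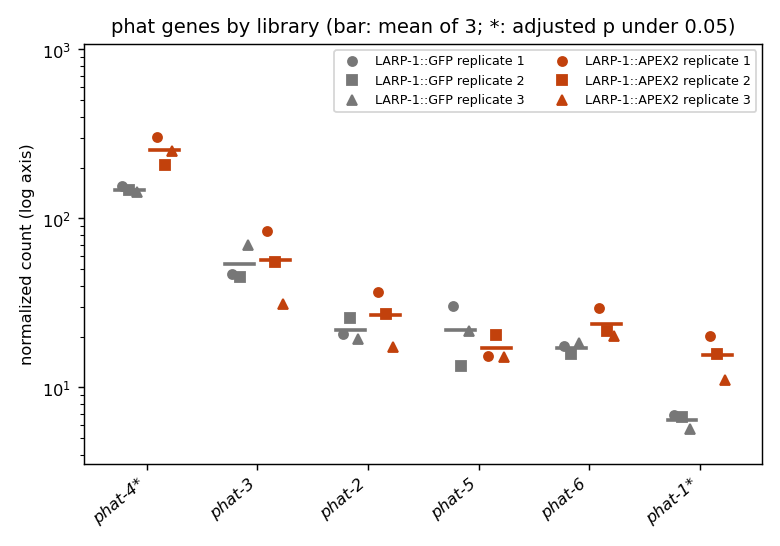
Normalized counts (log axis) of the 6 phat genes in the 3 LARP-1::GFP libraries (grey) and the 3 LARP-1::APEX2 libraries (orange), with a bar at each group mean. All APEX2 libraries lie above all GFP libraries for phat-4, phat-6 and phat-1, a pattern found in 19.9% of all tested genes. The groups overlap for the other 3 genes. The GFP values of phat-1 lie under the mean that chose the members.

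The label of the families was checked against other genes of the gland and the pharynx. The gland factor hlh-6, a basic helix-loop-helix protein needed for these cells, had 0 to 3.73 normalized counts in all libraries. The counts of kel-1 were 2.77 to 8.25, so both markers outside the 3 families were under the mean of 10. The phat genes, pqn-75 and kel-1 were detected in every library. With GFP, phat-1 at 5.71 to 6.87 lay inside the range of kel-1. Of the 8 pharyngeal muscle genes (myo-1, myo-2, myo-5, ceh-22, tnc-2, tni-4, tnt-4 and pha-4) 7 were tested and 0 were called by limma, edgeR or DESeq2, with 0 at an unadjusted limma p under 0.05, and their median log2 difference was 0.06. Without APEX2 replicate 3, pha-4 and myo-2 were called higher and the median was 0.17. Their summed counts were 1103 to 1302 with GFP and 1083 to 1425 with APEX2, which overlap. Within them the pharyngeal myosin gene myo-2 had 306, 315 and 278 with GFP and 443, 403 and 267 with APEX2 (0.28 ± 0.16; limma adjusted p = 0.26), and the organ identity factor pha-4 had 81.5, 75.0 and 82.2 with GFP and 119.02, 144 and 76.1 with APEX2 (0.45 ± 0.21; limma adjusted p = 0.15).

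A further list, chosen by gene symbol for the pharyngeal lining, was not higher. It held chs-2, the chitin synthase gene of the pharynx, with 2.80 to 8.84 normalized counts, and 28 fip and fipr genes, of the family of the fungus-induced peptides. As chs-2 was under the mean of 10, all 16 tested genes were fip or fipr genes, whose link to the lining was not tested. Of these 0 rose and 3 fell, with a median of -0.38, where 11.6% and 10.1% of all tested genes rose and fell. The fallen genes were fipr-10 (-1.43 ± 0.29; limma adjusted p = 0.0034), fipr-1 (-0.80 ± 0.22; limma adjusted p = 0.017) and fipr-21 (-0.67 ± 0.14; limma adjusted p = 0.0035). Summed counts were 900 to 1089.9 with GFP and 661 to 820.2 with APEX2. Corrected for exonic length, fipr-10 alone was called lower, fipr-24 and fipr-26 were called higher and the median was -0.15. Without APEX2 replicate 1, 8 were called lower. The gene fipr-1 lost its call when GFP replicate 1, GFP replicate 2 and APEX2 replicate 2 were each left out, and without the last fipr-26 was called higher.

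Genes of the molt moved with the abu genes in part. Among the 20 tested molt genes, 5 were called higher, 1 was called lower and 14 were not called, where 11.6% and 10.1% of all tested genes were called higher and lower. Their log2 differences had a median of 0.31. Those that rose were the timing receptor gene nhr-23 (0.43 ± 0.11; limma adjusted p = 0.011), mlt-10 (1.04 ± 0.14; limma adjusted p = 0.00018), let-653, of the apical matrix (1.92 ± 0.45; limma adjusted p = 0.0080), acn-1 (0.99 ± 0.26; limma adjusted p = 0.014) and pan-1 (0.56 ± 0.19; limma adjusted p = 0.043). The fibrillin-like gene fbn-1 fell (-0.87 ± 0.22; limma adjusted p = 0.013). Counts of mlt-10 were 189, 187 and 186 with GFP and 460, 384 and 328 with APEX2, the same order of APEX2 libraries as in abu-8. The summed counts of all 21 listed molt genes were 1899 to 2182 with GFP and 2232 to 2720.1 with APEX2, and median deviations in APEX2 replicates 1, 2 and 3 were 0.40, 0.52 and 0.13. Whether a difference in stage between the cultures has a part in the abu and pqn values was not tested. Without GFP replicate 3, mlt-10 and let-653 alone were called, and without GFP replicate 2 or APEX2 replicate 2, 3 molt genes were higher. Neither let-653 nor pan-1 was called by DESeq2. The call of pan-1 also ended with edgeR, the same total per library or length correction, and when any single library but APEX2 replicate 3 was left out.

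Genes of the unfolded protein response of the endoplasmic reticulum, after which the abu family was named, were more often called higher than lower. Of 20 tested, 10 rose and 0 fell, where 11.6% and 10.1% of all tested genes rose and fell, and the median log2 difference was 0.27. The chaperone gene hsp-4, the inducible BiP of the worm, had 1334, 1311 and 1207 normalized counts with GFP and 3648, 2616 and 1784 with APEX2, a rise of 1.00 ± 0.18 (limma adjusted p = 0.0015). Its APEX2 libraries stood in the same order as those of abu-8 and abu-14, with replicate 1 highest and replicate 3 lowest. The list as a set did not show this order, with median deviations of 0.30, 0.26 and 0.29 in APEX2 replicates 1, 2 and 3. The transcription factor gene xbp-1 rose by 0.43 ± 0.10 (limma adjusted p = 0.0067) and cdc-48.1, of the ATPase that extracts proteins from the membrane, by 0.76 ± 0.10. The sensor genes ire-1 (0.14), pek-1 (-0.01) and atf-6 (0.01) and the engulfment receptor gene ced-1 (-0.10), which earlier worm work placed upstream of abu genes, did not pass. Summed counts of the list were 23060.0 to 24337 with GFP and 28954 to 32885 with APEX2, and their part in the abu values was not tested. Without GFP replicate 1 or 3, 6 and 5 of the genes were called higher, and 6 under quantile normalization.

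**Figure D5:**
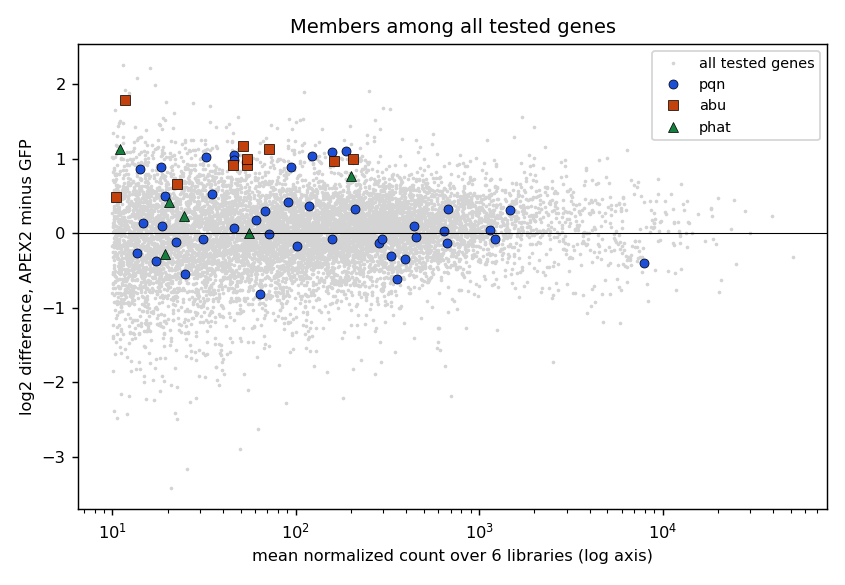
Log2 difference against mean normalized count (log axis) for all 10534 tested genes (grey), with abu, pqn and phat members marked. All 10 abu genes lie above 0, and pqn-59 is the most abundant member.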

How the data were processed

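RNA of 6 libraries of whole Caenorhabditis elegans was compared, 3 per group. The authors deposited 1 table of 16262 genes whose normalized counts are a signal, each gene's reads divided by 1 size factor per library. Per the submitters' processing notes, the tools were DESeq2, featureCounts, STAR, Bowtie and Trim Galore, with build ce11. The sources used here do not give their versions or settings, or whether counting used strand. In each library 100% of values came out as whole reads (tolerance 0.001) when divided by the smallest, so reads could be recovered.

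Values were taken as log2(value + 1), which understates changes of low genes, and compared with limma 3.58.1 in R 4.3.3 (trended, robust variance prior, no covariate). The fit covered the 10534 genes with a mean of at least 10, with two-sided tests, Benjamini-Hochberg adjustment over all of them and a threshold of 0.05. The calls of edgeR 4.0.16 (1127 genes higher and 1096 lower) and DESeq2 1.42.0 (1034 and 958) on recovered reads were alternatives, beside other scalings, pseudocounts, filters, a loess correction for exonic length, a replicate block and leaving out each library. The fits were tested on simulated data. Positions and exonic lengths are 1-based, on WBcel235 (ce11), from Ensembl's gene models, found for 15691 genes by symbol and 488 by sequence name, with 83 unmatched.

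Members and gene lists were chosen with earlier results of these data known. Named genes were the called members, the 3 most abundant of each family, every phat gene and the members nearest the threshold. Members whose groups did not overlap, the other abu genes and the pqn genes with the widest APEX2 spread were added after their values were seen. No sequence was used here, so the pqn genes were not split by cysteine content. Replicates differed by more than sampling noise (chi-square per degree of freedom 2.87 to 12.0). The labels do not call them separate cultures, so the spread behind each p-value may be technical. Sums over a family are given without a test.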

Additional observations from a re-analysis of the deposited data

How the results depend on the processing

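Among the 19 called members 7 (abu-1, phat-4, pqn-31, pqn-41, pqn-63, pqn-74 and pqn-75) were called in every setting that gave them a value, and 0 changed sign in any of the 17 settings. With libraries left out, genes called higher numbered 612 to 1310 and lower 550 to 1191 (1219 and 1069 with all). Members called higher numbered 3 to 9 of abu (6), 4 to 8 of pqn (8) and 1 to 2 of phat (2), and pqn genes called lower 1 to 4 (3). The phat count was 1 with DESeq2, TMM scaling, the same total per library, no filter, a mean of at least 50, length correction or a replicate block. The pqn count was 5 with a mean of at least 50, which removes 3 called genes. Same-numbered samples did not deviate together (correlations -0.16, -0.08 and 0.02), so numbers were not taken as pairs. With the replicate block 984 genes were higher and 883 lower, 8 abu genes and 7 pqn genes higher and 3 pqn genes lower.

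The difference of phat-3, near 0, was positive with edgeR (0.017), DESeq2 (0.041), quantile normalization (0.037) or a pseudocount of 5 (0.0027), and ran from -0.34 to 0.37 with libraries left out. Such ranges also crossed 0 for phat-2 (-0.0074 to 0.51), pqn-20 (-0.22 to 0.0086), pqn-62 (-0.21 to 0.70) and pqn-73 (-0.48 to 0.51). The cause was not tested. Summed shares with APEX2 minus GFP ranged with libraries left out from 0.0073 to 0.014 percentage points for abu (0.0103 with all), -0.056 to -0.041 for pqn (-0.049) and 0.0016 to 0.0029 for phat (0.0025). DESeq2 gave no adjusted p for abu-12, abu-13, phat-1, pqn-60 and pqn-88. Depth limits members such as abu-12 and phat-1, with under 10 reads in each GFP library.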

Other observations

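Marker genes of other tissues were called in both directions, where 11.6% of all tested genes were called higher and 10.1% lower. In body wall muscle, hypodermis and sperm 1 gene each was under the mean of 10. The intestinal list (elt-2, ges-1, asp-1, cpr-6, vha-6 and act-5) had 2 genes higher, vha-6 and act-5, and 1 lower, asp-1, of 6, with a median log2 difference of -0.18. Of these only act-5 was called without GFP replicate 1 or 3, and asp-1 lost its call with quantile normalization or the replicate block, and when any single library but APEX2 replicate 1 was left out. In body wall muscle unc-15 and lev-11 were higher and myo-3 lower, of 6 tested (0.05). The call of unc-15 ended with edgeR, DESeq2, TMM scaling, the same total, quantile normalization, length correction or the replicate block, and without GFP replicate 1, 2 or 3 or APEX2 replicate 2. That of myo-3 ended without GFP replicate 2 or 3. In the hypodermis bli-1 was higher, of 5 tested (0.07). Of 8 neuronal genes 0 were called by limma (-0.10), edgeR or DESeq2 and 1, egl-3, had an unadjusted p under 0.05. The gene egl-3 was called lower with length correction or without APEX2 replicate 3, and unc-119 without APEX2 replicate 1. In the germline glh-1 and puf-5 were higher and pgl-1 lower, of 7 (0.11), and in sperm ssp-9 was higher and ssq-1 lower, of 5 tested (0.11). Without GFP replicate 3 or APEX2 replicate 2 neither glh-1 nor puf-5 was called, without GFP replicate 1 or 2 puf-5 was not, nor with the same total, quantile normalization, length correction or the replicate block, and without GFP replicate 3 ssp-9 was not. The summed counts of the groups did not overlap for body wall muscle (18620.4 to 21240.1 with GFP and 21394 to 25359 with APEX2) and the germline (21899.5 to 22933 and 23678 to 25383). Those of neurons all but touched (2043 to 2081.5 and 2082.2 to 2093), and the median of that list was -0.10. Among single tested genes, all APEX2 libraries lay above all GFP libraries for 19.9%.

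Of the 14 genes of these families under the mean of 10, abu-4 had 3.93, 6.72 and 0 normalized counts with GFP and 11.8, 0.933 and 2.08 with APEX2. The counts of pqn-97 were 0, 1.12 and 0 with GFP and 0, 9.33 and 2.77 with APEX2.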
